A study of Mus musculus with 2 samples.

Results

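Chromatin accessibility was examined around 10 genes that encode TGFβ family ligands or members of the latent TGFβ binding protein family: Tgfb1, Tgfb2, Tgfb3, Inhba, Inhbb, Bmp4, Gdf15, Ltbp1, Ltbp2 and Ltbp3. The measurements were DNaseI-seq peak lists from NMuMG cells, an established line of epithelial cells derived from the mammary gland of normal mice. In DNaseI-seq, nuclei are cut briefly with DNaseI, and the short fragments that pile up mark open chromatin. Both groups grew in medium with serum and insulin and then stood for 6 h without either. The vehicle group then received the carrier solution, which held hydrochloric acid and albumin, for 2 h. The TGFβ 2 h group received TGFβ1 at 5 ng/ml in that carrier for 2 h. The deposited data hold 1 peak list per condition, so the spread between replicates is unknown, no test between conditions was possible, and every difference below is one between 2 lists.

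All distinct intervals that overlapped the gene body of a listed gene, or lay within 50 kb of it, were taken. All 10 genes were found among the 22380 protein-coding genes of the annotation. They had 45 of the 17784 vehicle intervals and 60 of the 22600 TGFβ 2 h intervals near them. An interval was called shared if at least 1 bp overlapped an interval of the other list, and otherwise vehicle-only or TGFβ 2 h-only. These names say in which list an interval was called, not that accessibility was absent in the other condition. An interval within 1000 bp of the start of any annotated transcript was called a promoter interval, and the rest were called distal. Peaks come from a whole culture, so opening in more cells and wider opening in each cell cannot be told apart. Of 6 epithelial marker genes, Cdh1, Krt8 and Krt18 had a start-site interval in both lists, and Epcam, Cldn3 and Esrp1 had none in either. None of 10 markers of mesenchymal, endothelial, blood, liver or fat cells had one in either list.

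TGFβ family ligands are secreted as dimers. Most of them, though not all, bind pairs of serine/threonine kinase receptors, and these phosphorylate SMAD proteins that enter the nucleus. TGFβ1, TGFβ2 and TGFβ3 leave the cell bound to their own propeptide, which is usually tied by a latent TGFβ binding protein to the extracellular matrix, and they act only after release. TGFβ1 is known to raise transcription of its own gene in many cell types, and AP-1, the dimer of FOS and JUN family proteins, takes part with SMADs in many TGFβ responses.

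Of the 21 TGFβ 2 h-only intervals near the 10 genes, 5 held the AP-1 string TGAGTCA on either strand in the 300 bp around the midpoint. Their mm9 plus-strand sequences are shown because they were called near these genes after TGFβ alone and carry the letters of that site within that window. A pair of further TGFβ 2 h-only intervals, in introns of Ltbp1 and Ltbp2, held 1 such string each outside that window and are not printed. Capitals mark TGAGTCA or its complement TGACTCA, the CAGA box CAGACA or its complement TGTCTG, and the SMAD string GGCGC or its complement GCGCC.
Tgfb2 downstream, TGFβ 2 h-only, chr1:188428119-188428418: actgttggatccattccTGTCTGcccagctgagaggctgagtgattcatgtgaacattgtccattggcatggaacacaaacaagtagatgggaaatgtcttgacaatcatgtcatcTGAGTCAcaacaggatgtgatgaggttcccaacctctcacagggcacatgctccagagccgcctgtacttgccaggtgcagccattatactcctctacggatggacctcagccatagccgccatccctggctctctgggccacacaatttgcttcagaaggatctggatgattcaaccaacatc
Tgfb2 intron, TGFβ 2 h-only, chr1:188500179-188500478: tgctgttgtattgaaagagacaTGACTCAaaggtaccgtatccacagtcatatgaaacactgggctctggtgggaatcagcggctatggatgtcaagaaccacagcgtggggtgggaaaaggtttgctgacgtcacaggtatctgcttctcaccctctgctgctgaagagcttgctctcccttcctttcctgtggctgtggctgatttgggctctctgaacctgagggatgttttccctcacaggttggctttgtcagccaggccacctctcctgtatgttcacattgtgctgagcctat
Gdf15 upstream (nearer), TGFβ 2 h-only, chr8:73203524-73203823: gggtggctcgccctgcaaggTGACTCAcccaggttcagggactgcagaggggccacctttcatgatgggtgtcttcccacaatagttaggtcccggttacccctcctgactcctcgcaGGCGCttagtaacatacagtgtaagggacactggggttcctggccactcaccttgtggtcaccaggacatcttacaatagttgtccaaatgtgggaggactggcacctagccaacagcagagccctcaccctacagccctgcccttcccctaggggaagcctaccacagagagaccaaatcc
Gdf15 upstream (farther), TGFβ 2 h-only, chr8:73206197-73206496: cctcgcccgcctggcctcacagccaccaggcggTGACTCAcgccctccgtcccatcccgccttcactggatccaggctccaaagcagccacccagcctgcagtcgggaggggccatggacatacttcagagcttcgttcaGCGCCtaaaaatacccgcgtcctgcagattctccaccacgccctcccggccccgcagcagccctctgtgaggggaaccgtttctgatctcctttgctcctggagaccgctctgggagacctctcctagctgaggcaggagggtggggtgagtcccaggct
Ltbp2 upstream, TGFβ 2 h-only, chr12:86225962-86226261: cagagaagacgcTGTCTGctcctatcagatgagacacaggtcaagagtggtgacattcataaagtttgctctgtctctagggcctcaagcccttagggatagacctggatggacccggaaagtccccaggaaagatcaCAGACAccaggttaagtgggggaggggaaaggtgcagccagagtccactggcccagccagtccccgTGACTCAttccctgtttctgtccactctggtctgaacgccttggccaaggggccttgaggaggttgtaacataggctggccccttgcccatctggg

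Each of these 5 windows held 1 AP-1 string. The Ltbp2 window also held 2 CAGA boxes and the downstream Tgfb2 window held 1, whereas both Gdf15 windows held 1 GGCGC string. AP-1 strings were not limited to intervals of the TGFβ list. As a contrast, a pair of intervals present in both lists is shown with the same marking, 1 in an intron of Ltbp1 and 1 upstream of Ltbp3 in an intron of its neighbour Ehbp1l1. The Ltbp3 window, centred on the TGFβ 2 h interval, held 2 AP-1 strings and 1 CAGA box.
Ltbp1 intron, shared, chr17:75509993-75510292: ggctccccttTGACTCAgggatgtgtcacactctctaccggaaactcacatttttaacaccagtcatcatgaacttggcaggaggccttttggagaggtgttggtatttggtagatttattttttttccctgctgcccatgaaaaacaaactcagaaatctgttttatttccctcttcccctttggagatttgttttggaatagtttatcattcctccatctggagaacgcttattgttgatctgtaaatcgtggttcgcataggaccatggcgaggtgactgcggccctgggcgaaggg
Ltbp3 upstream, shared, chr19:5724588-5724887: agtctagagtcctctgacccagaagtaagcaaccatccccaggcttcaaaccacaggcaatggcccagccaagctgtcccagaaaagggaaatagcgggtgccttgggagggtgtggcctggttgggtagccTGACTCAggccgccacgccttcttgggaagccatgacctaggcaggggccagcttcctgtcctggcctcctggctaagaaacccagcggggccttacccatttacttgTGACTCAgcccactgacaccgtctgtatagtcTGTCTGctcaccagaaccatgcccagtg

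The start region of Tgfb1 is shown as well, because it is the place near these genes where each list held an interval that the other lacked, a short distance apart. The vehicle-only window held the GGCGC string 3 times over both strands, with 1 overlap of both orientations in GGCGCC, and neither window held an AP-1 string or a CAGA box.
Tgfb1 coding exon, vehicle-only, chr7:26473005-26473304: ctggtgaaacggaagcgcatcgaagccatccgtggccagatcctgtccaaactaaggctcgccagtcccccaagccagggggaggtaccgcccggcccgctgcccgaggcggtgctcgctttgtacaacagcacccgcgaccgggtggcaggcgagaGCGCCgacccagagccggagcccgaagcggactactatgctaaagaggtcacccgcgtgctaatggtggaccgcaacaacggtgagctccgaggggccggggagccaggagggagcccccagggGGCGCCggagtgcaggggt
Tgfb1 intron, TGFβ 2 h-only, chr7:26474200-26474499: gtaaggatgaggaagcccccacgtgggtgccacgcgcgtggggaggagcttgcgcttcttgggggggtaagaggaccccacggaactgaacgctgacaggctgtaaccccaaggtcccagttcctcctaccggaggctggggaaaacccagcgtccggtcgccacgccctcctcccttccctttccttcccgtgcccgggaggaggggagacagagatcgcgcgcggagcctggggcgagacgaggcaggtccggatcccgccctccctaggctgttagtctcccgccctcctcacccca

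The TGFβ 2 h list held more intervals than the vehicle list near 5 of the 10 genes, namely Tgfb2, Inhbb, Gdf15, Ltbp1 and Ltbp2. Over all protein-coding genes the share with more TGFβ 2 h intervals in the same window was 33.6%. The lists held equal numbers near Tgfb1, Tgfb3, Inhba and Bmp4. Ltbp3 alone had fewer, against 13.2% of protein-coding genes. A TGFβ 2 h-only interval lay near 6 of the 10 genes, against a background of 40.5%, and a vehicle-only interval near 3 of the 10, against 25.9%. The 10 genes had a mean of 4.5 vehicle and 6.00 TGFβ 2 h intervals each, compared with 2.34 and 2.72 over all protein-coding genes. The window grows with the gene body, which ran from 3.06 kb for Gdf15 to 387 kb for Ltbp1, so the length searched differed between genes. The part of that length in the counts was not tested.

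**Figure D1:**
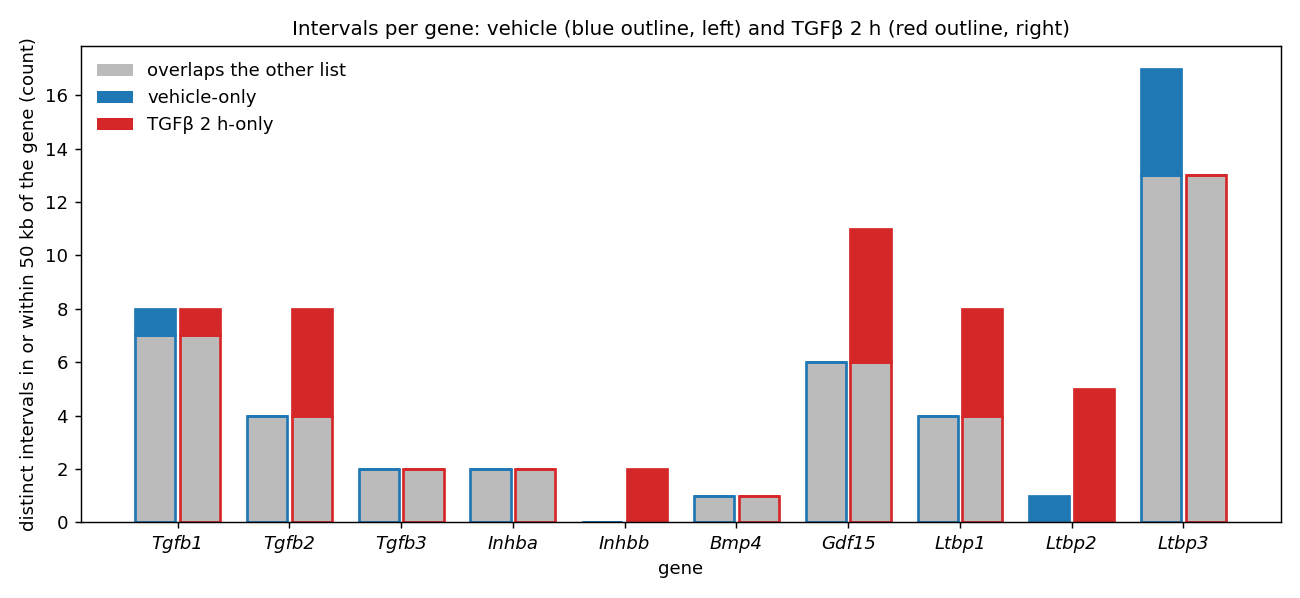
Distinct intervals (count, vertical axis) in or within 50 kb of each gene (horizontal axis) in the vehicle list (left bar, blue outline) and the TGFβ 2 h list (right bar, red outline), with grey for shared intervals and solid blue or red for intervals of that list only. Ltbp3 has 17 and 13 intervals and Gdf15 has 6 and 11, while Tgfb1, Tgfb3, Inhba and Bmp4 have bars of equal height.

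As a group, the intervals near the 10 genes divided between the lists much as all intervals did. Of the 60 TGFβ 2 h intervals, 21 were TGFβ 2 h-only, which is 35.0% (Wilson 95% interval 24.2 to 47.6), and the whole list had 33.7%. Of the 45 vehicle intervals, 6 were vehicle-only, which is 13.3% (6.26 to 26.2), and the whole list had 17.6%. Among distal intervals, 18 of 34 were TGFβ 2 h-only, or 52.9%, beside 55.3% of all distal intervals, and 3 of 19 were vehicle-only, or 15.8%, beside 31.6%. Among promoter intervals, 3 of 26 in each list were in that list only, or 11.5%, beside 10.1% of all promoter intervals for TGFβ 2 h and 7.29% for vehicle. The intervals called after TGFβ alone were therefore mainly distal, 18 of 21 or 85.7% (65.4 to 95.0), and the whole list had 85.7% too. The Wilson intervals cover the counting of peaks only, not variation between cultures or libraries.

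**Figure D2:**
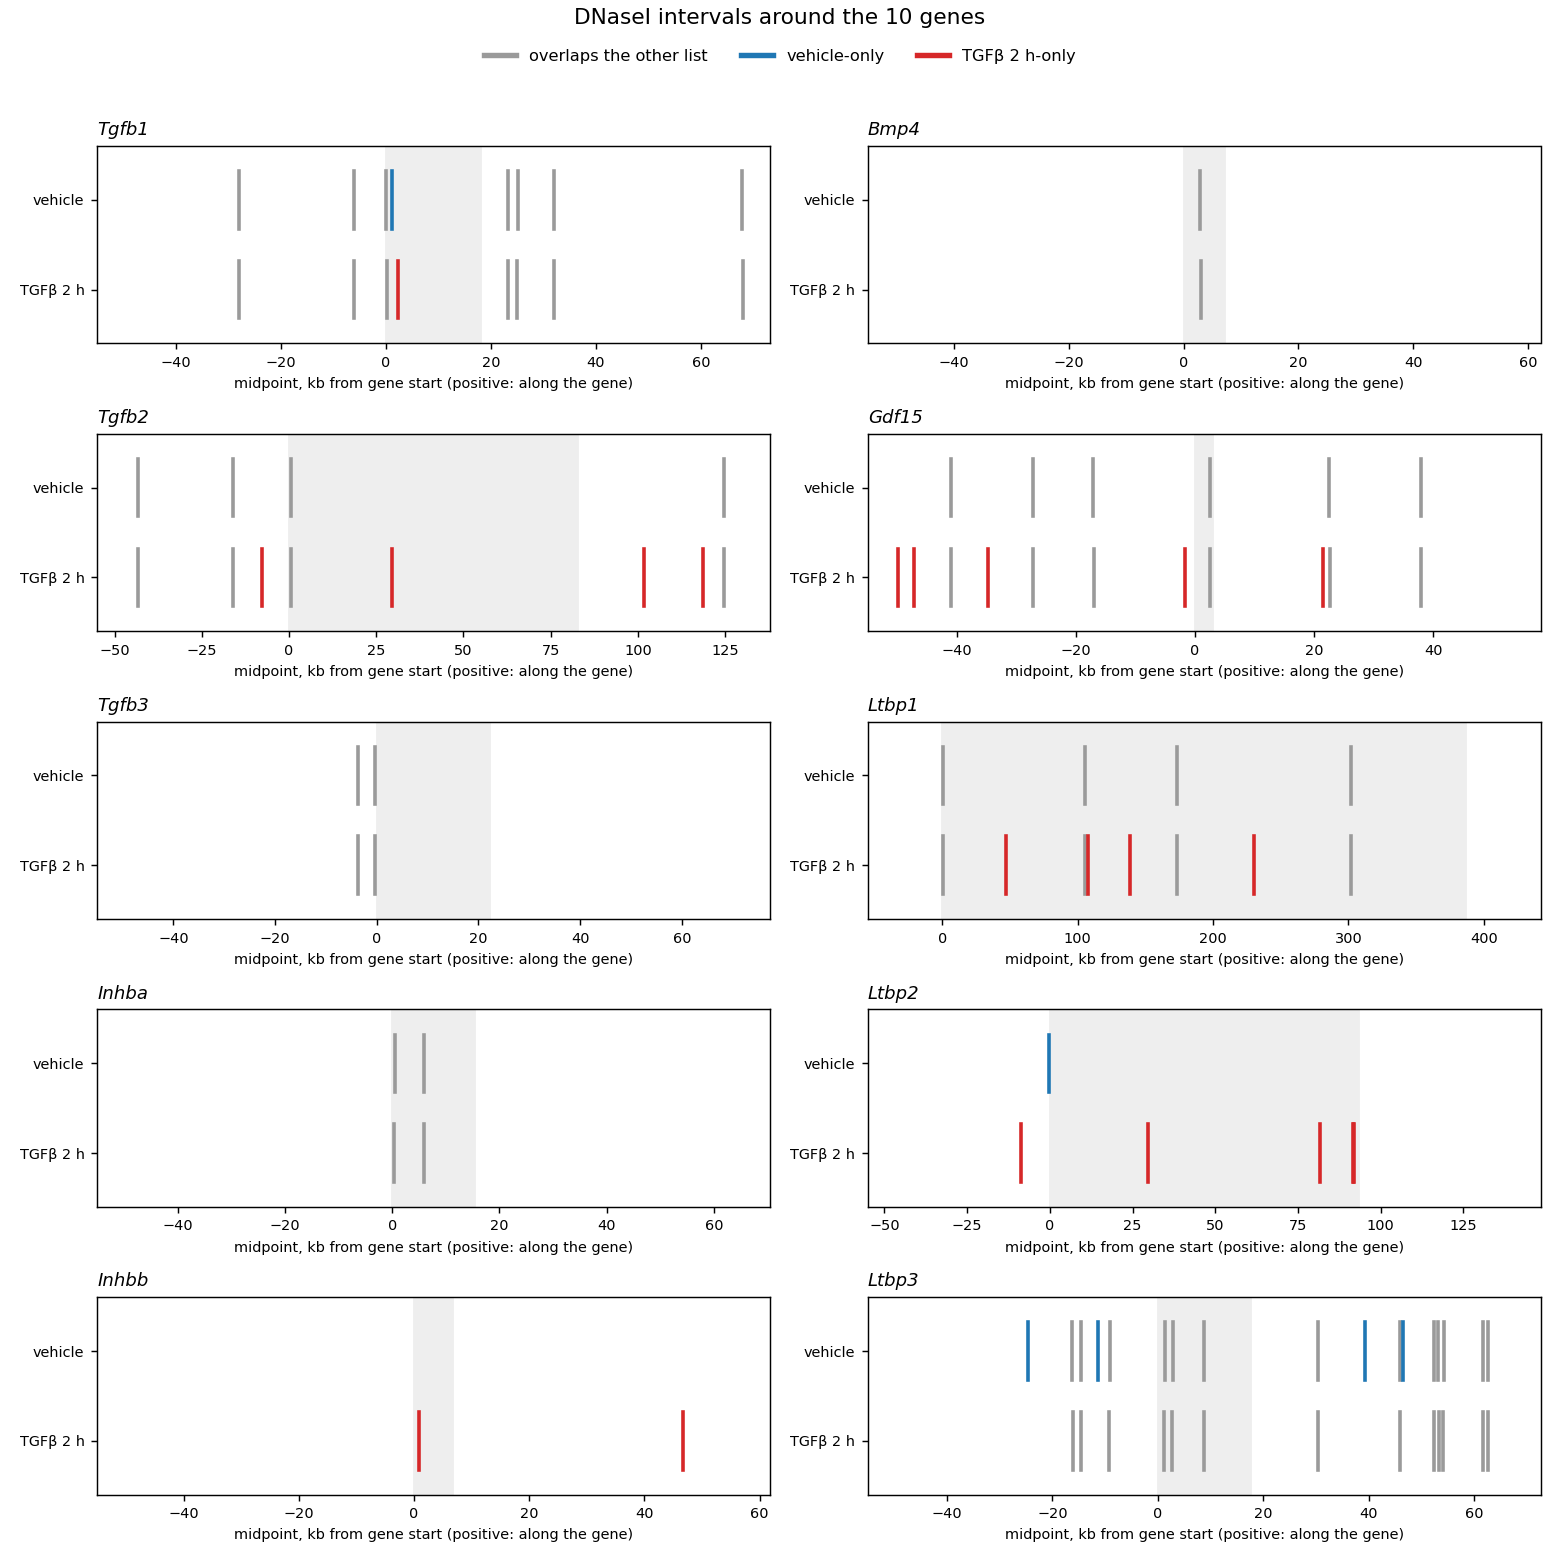
Position of each interval midpoint in kb from the gene start (horizontal axis, positive along the gene, 0 at the start) for the 10 genes, with the vehicle list in the upper row and the TGFβ 2 h list in the lower row of each panel, and the gene body shaded. Grey ticks overlap the other list, blue ticks are vehicle-only and red ticks are TGFβ 2 h-only. The 4 red ticks of Ltbp1 lie inside its gene body, Gdf15 has its red ticks on both sides, and Ltbp3 has blue ticks and no red one.

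Among the 3 TGFβ ligand genes, Tgfb2 had more intervals in the TGFβ 2 h list, whereas Tgfb1 and Tgfb3 had equal numbers. Together they had 14 vehicle and 18 TGFβ 2 h intervals, of which 1 was vehicle-only, or 7.14%, and 5 were TGFβ 2 h-only, or 27.8%, beside 17.6% and 33.7% of the whole lists. All 3 had a start-site interval in both lists, as did 43.8% of protein-coding genes.

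Tgfb1 (ENSMUSG00000002603.9, mm9 chr7:26472021-26490096, plus strand) had 8 intervals in each list, and 7 of them were shared. Its own start carried a shared interval at the score ceiling of 1000 in both lists, 729 bp wide with vehicle and 790 bp wide after TGFβ. The remaining interval of each list was a different one, both inside the gene and both by an internal start. The vehicle-only interval was 377 bp wide, lay over a coding exon 1.13 kb from the gene start, and had a score of 543, close to the lowest score in the list, 540. The TGFβ 2 h-only interval was 507 bp wide, lay in an intron 2.33 kb from the gene start and 404 bp past an alternative start, and had a score of 843. The vehicle-only interval was 0.398 kb from the nearest TGFβ 2 h interval, and the TGFβ 2 h-only interval was 0.753 kb from the nearest vehicle interval, so both sat close to peaks of the other list. Several of the shared intervals in the Tgfb1 window lay at starts of neighbours, Exosc5, B9d2, Ccdc97 and Hnrnpul1.

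Tgfb2 (ENSMUSG00000039239.8, chr1:188447065-188529871, minus strand) had 4 intervals with vehicle and 8 after TGFβ, with all 4 vehicle intervals shared. Only 2.44% of protein-coding genes had as many as 4 TGFβ 2 h-only intervals in their window. The highest-scoring of the 4 was 820 bp wide, reached the ceiling of 1000 and lay 119 kb from the gene start, beyond the 3′ end of the gene. The second was 310 bp wide with a score of 616 at 102 kb, also beyond the 3′ end, and it is the downstream Tgfb2 sequence printed above. The third lay 7.8 kb upstream of the start, was 250 bp wide and had a score of 580. The last, 283 bp wide with a score of 571, was in an intron 29.5 kb from the start, where the annotation also places a start of the small nucleolar RNA gene SNORA70. That annotated start makes it a promoter interval by the rule used. All 4 had Tgfb2 as their nearest protein-coding start. The Tgfb2 start itself was shared, 640 bp wide with a score of 845 for vehicle and 533 bp wide with a score of 1000 for TGFβ 2 h.

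Tgfb3 (ENSMUSG00000021253.6, chr12:87397694-87419991, minus strand) had 2 intervals in each list, and both were shared. The interval at its start was 416 bp wide with a score of 866 for vehicle and 390 bp wide with a score of 607 for TGFβ 2 h. The other was at the start of 1700019E19Rik, 3.75 kb upstream in the vehicle list. No interval lay within the Tgfb3 gene body in either list.

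The activin and inhibin subunit genes differed from each other. Inhba encodes the βA subunit, whose dimer is activin A, and Inhbb encodes the βB subunit. Inhba (ENSMUSG00000041324.7, chr13:16103684-16119044, plus strand) had the same 2 shared intervals in both lists. Its start interval was 977 bp wide with vehicle and 646 bp wide after TGFβ, with scores of 760 and 1000. Its intron interval was 804 bp wide with vehicle and 387 bp wide after TGFβ, with scores of 575 and 628. Inhbb (ENSMUSG00000037035.5, chr1:121312042-121318825, minus strand) had 0 intervals in the vehicle list and 2 after TGFβ. The interval near its start was 133 bp wide, lay in an untranslated exon 0.795 kb from the start, and had a score of 544, which only 0.788% of the TGFβ 2 h list fell below. The other was 305 bp wide with a score of 574, 46.7 kb from the start and beyond the 3′ end. Their nearest vehicle intervals were 82.7 and 129 kb away. Both Inhbb intervals were thus near the lower limit of the list.

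Bmp4 and Gdf15 encode more distant ligands of the family, a bone morphogenetic protein and a stress-induced growth factor. Neither had an interval at its own start in either list. Bmp4 (ENSMUSG00000021835.8, chr14:47003195-47010344, minus strand) had 1 shared interval in each list, in an intron and at the start of the overlapping gene model Gm15222. It was 1129 bp wide with a score of 720 for vehicle and 894 bp wide with a score of 790 for TGFβ 2 h.

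Gdf15 (ENSMUSG00000038508.7, chr8:73153292-73156355, minus strand) had 6 intervals with vehicle and 11 after TGFβ, and all 6 vehicle intervals were shared. Its 5 TGFβ 2 h-only intervals matched the count at Ltbp2, a number that 0.907% of protein-coding genes reached. The shared interval inside the gene lay over a coding exon, was at the ceiling in both lists, and measured 781 and 810 bp. The TGFβ 2 h-only interval nearest to the start was 1.73 kb upstream, 408 bp wide, with a score of 946, and no vehicle interval lay within 3.66 kb of it. The highest-scoring was 50.0 kb upstream, 527 bp wide and at the ceiling of 1000, and it lies at the very edge of the window searched. The third by score was 34.8 kb upstream, 420 bp wide, with a score of 776. A further interval 47.3 kb upstream was 609 bp wide with a score of 727. These 3 far upstream intervals were nearer to the start of Lsm4 than to that of Gdf15, at 9.02, 6.01 and 6.34 kb from it. The last of the 5 was 149 bp wide, on the other side near Ssbp4, with a score of 548, and only 0.236 kb from a vehicle interval.

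The latent TGFβ binding protein genes went different ways. LTBP1 and LTBP3 bind latent TGFβ covalently and anchor it in the matrix, whereas LTBP2 is a matrix protein of the same family that does not bind it. Together the 3 genes had 22 vehicle and 26 TGFβ 2 h intervals, 5 and 9 of them in that list only, or 22.7% and 34.6%, near the 17.6% and 33.7% of the whole lists. The TGFβ 2 h-only intervals were at Ltbp1 and Ltbp2, and 4 of the 5 vehicle-only intervals were at Ltbp3. The difference between the genes was not tested, since each had 1 list per condition.

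Ltbp1 (ENSMUSG00000001870.8, chr17:75404908-75791852, plus strand) had 4 intervals with vehicle and 8 after TGFβ. The 4 vehicle intervals were all shared. A pair of its starts was open in both lists. The first start had an interval of 1259 bp with vehicle and 1545 bp after TGFβ, with scores of 1000 and 674, and an internal start 173 kb into the gene had one of 859 and 1104 bp, with scores of 655 and 1000. The 4 TGFβ 2 h-only intervals all lay in introns, at 46.9, 107, 139 and 230 kb from the gene start. The highest score among them, 797, belonged to the interval at 107 kb, which was 385 bp wide and 1.37 kb from a vehicle interval. The interval at 46.9 kb had a score of 646 and that at 139 kb, the widest of the 4 at 811 bp, a score of 621. The interval at 230 kb had a score of 619 and 4 CAGA boxes in its window, and the nearest vehicle interval was 56.7 kb away.

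Ltbp2 (ENSMUSG00000002020.8, chr12:86124162-86217482, minus strand) shared no interval between the lists. The vehicle list had 1 interval, 484 bp wide with a score of 721, 0.325 kb upstream of the gene start and over an untranslated exon of D030025P21Rik. No TGFβ 2 h interval lay within 7.59 kb of it. The TGFβ 2 h list had 5 intervals and none at a start of Ltbp2. The highest score, 823, was that of an intron interval of 504 bp, 29.8 kb into the gene. Next were neighbouring intron intervals of 395 and 73 bp with scores of 810 and 809, 91.9 and 91.6 kb into the gene. A further intron interval, 552 bp wide and 81.6 kb from the start, had a score of 607. The 5th was the interval printed above, 952 bp wide with a score of 670, and 8.63 kb upstream of the start. Of all 10 genes, Ltbp2 was the only one with a start-site interval in the vehicle list alone, and Inhbb the only one with such an interval in the TGFβ 2 h list alone. Over all protein-coding genes, 43.8% had a start-site interval in both lists and 51.9% in neither, which leaves the rest with one in a single list. The Inhbb start interval is lost when intervals under 150 bp are dropped, as are the interval of 149 bp at Gdf15 and that of 73 bp at Ltbp2, which leaves 57 TGFβ 2 h and 18 TGFβ 2 h-only intervals near the 10 genes.

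Ltbp3 (ENSMUSG00000024940.9, chr19:5740904-5758532, plus strand) lies among closely spaced genes and had 17 intervals with vehicle and 13 after TGFβ. Only 0.0223% of protein-coding genes had as many vehicle intervals, and 0.299% had as many as its 4 vehicle-only intervals. All 13 TGFβ 2 h intervals were shared. None of the 4 vehicle-only intervals was inside Ltbp3 or had it as the nearest protein-coding start. The highest-scoring, 550 bp wide with a score of 989 and 46.5 kb from the gene start, lay 0.131 kb from a TGFβ 2 h interval. Another, 519 bp wide with a score of 885, was at the start of Fam89b. The remaining vehicle-only intervals had scores of 558 in a coding exon of Ehbp1l1 and 638 in intergenic sequence 39.4 kb from the start. At the Ltbp3 start the shared interval measured 1115 bp with vehicle and 555 bp after TGFβ, with scores of 886 and 877 in their own lists. The 2 other shared intervals of the gene body, both in introns, were wider after TGFβ, 860 against 783 bp and 450 against 357 bp.

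**Figure D3:**
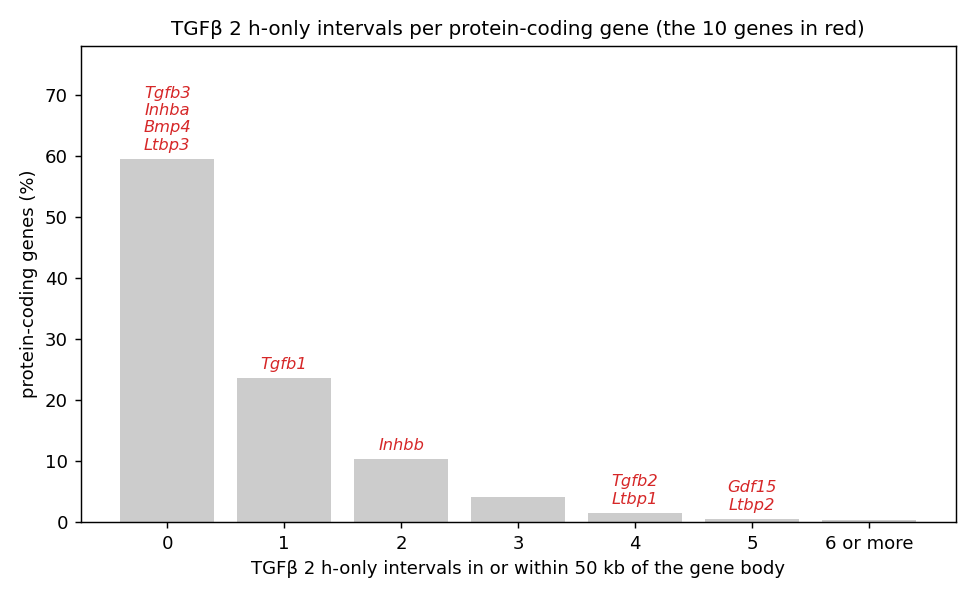
Share of protein-coding genes (%, vertical axis) by the number of TGFβ 2 h-only intervals in or within 50 kb of the gene body (horizontal axis), with the listed genes named in red above the bar of their own count. Tgfb3, Inhba, Bmp4 and Ltbp3 stand at 0 with 59.5% of genes, Tgfb1 at 1, Inhbb at 2, Tgfb2 and Ltbp1 at 4, and Gdf15 and Ltbp2 at 5 with 0.55% of genes.

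The 39 shared intervals of each list formed 39 one-to-one pairs, which allowed widths to be compared site by site. The TGFβ 2 h interval was the narrower in 25 pairs, or 64.1% (Wilson 95% interval 48.4 to 77.3), and over all pairs of the lists it was the narrower in 70.9%. The median ratio of TGFβ 2 h to vehicle width was 0.938, beside 0.906 over all pairs. The ratio ran from 0.38, at the Ehbp1l1 start in the Ltbp3 window, to 1.33. At the listed genes' own starts the interval was narrower after TGFβ for Tgfb2, Tgfb3, Inhba and Ltbp3, and wider for Tgfb1 and for both starts of Ltbp1. The narrowing was close to that over all pairs, and how width depends on read depth, which was greater for the vehicle library, was not tested.

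**Figure D4:**
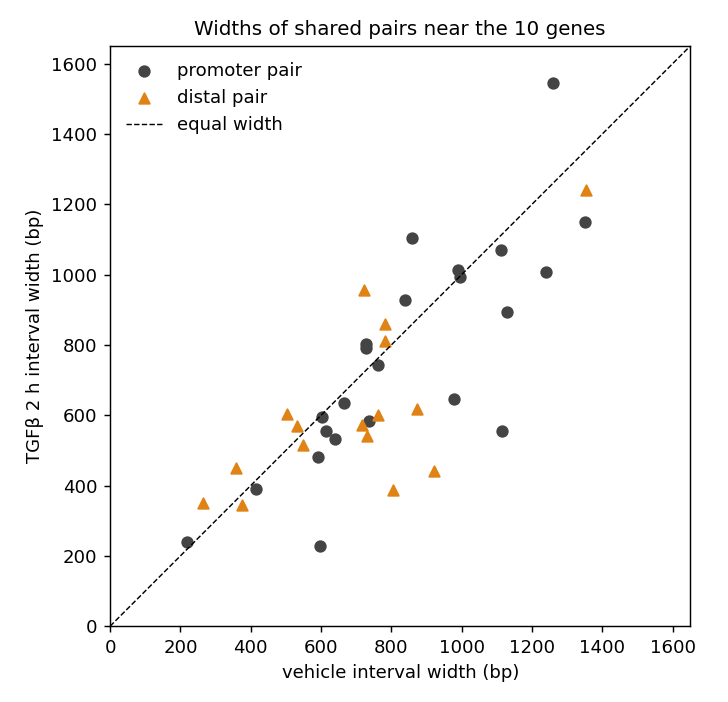
Width of the TGFβ 2 h interval (bp, vertical axis) against the width of the vehicle interval it overlaps (bp, horizontal axis) for the 39 pairs near the 10 genes, with circles for promoter pairs, triangles for distal pairs and a dashed line at equal width. There are 25 pairs below the line and 14 above it.

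Scores were read within each list only, because they rank peaks of that list and many were tied at the ceiling. Near the 10 genes, 24 of 39 shared intervals reached 1000 in each list, or 61.5%, beside 63.5% of all shared vehicle intervals and 62.8% of all shared TGFβ 2 h intervals. In 18 pairs both members did so. Among TGFβ 2 h-only intervals 2 of 21 reached it, 9.52% (2.65 to 28.9) beside 7.77% of all such intervals, namely the far ones at Tgfb2 and Gdf15. None of the 6 vehicle-only intervals did, which allows a share of up to 50.0%, since a count of 0 allows up to 3, and 4.96% of all vehicle-only intervals did. The median score was 670 for TGFβ 2 h-only and 680 for vehicle-only intervals, each in its own list. Unshared intervals were also narrower, with a median of 395 bp for TGFβ 2 h-only and 502 bp for vehicle-only intervals, beside 604 and 737 bp for the shared intervals of those lists. The same held over the whole lists, where the medians were 436 bp for TGFβ 2 h-only and 472 bp for vehicle-only intervals, beside 723 and 828 bp for shared ones.

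**Figure D5:**
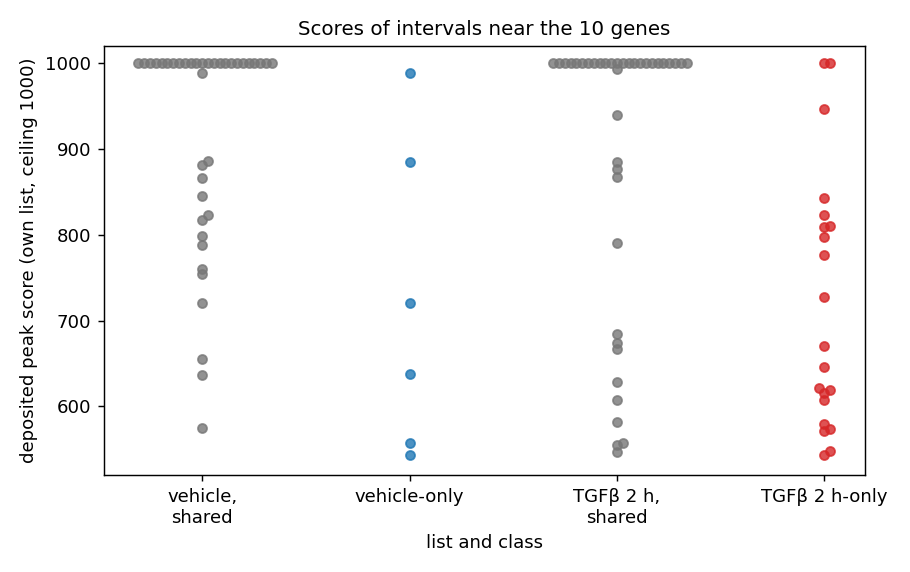
Deposited peak score (vertical axis, from near the lowest score of 540 to the ceiling of 1000) of every interval near the 10 genes, in 4 columns by list and class, with 1 point per interval and sideways spread used only to separate ties. Of the 39 shared intervals of each list 24 sit at the ceiling, against 2 of 21 TGFβ 2 h-only and 0 of 6 vehicle-only intervals.

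Location in the genome was read at the midpoint. Of the 21 TGFβ 2 h-only intervals, 10 had their midpoint in an intron, 10 in intergenic sequence and 1 in an untranslated exon, and 11 lay inside a listed gene body. Over all 7611 TGFβ 2 h-only intervals, 44.6% were in introns, 45.8% in intergenic sequence and 3.61% in untranslated exons. The nearest protein-coding start belonged to a listed gene for 16 of these 21, compared with 16 of the 39 shared TGFβ 2 h intervals and 2 of the 6 vehicle-only intervals, a count with no counterpart over the whole lists. Many shared intervals lay at starts of neighbouring genes, such as Ccdc97, Pgpep1 and Lsm4. From the nearest vehicle interval, 11 of the 21 were over 10 kb away and 2 were within 1000 bp, at Tgfb1 and Gdf15, beside 70.7% and 6.08% of all TGFβ 2 h-only intervals.

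Motif strings were counted in the 300 bp around each midpoint, on both strands, and were set beside the share over all intervals of the same class. AP-1 strings were in 5 of 21 TGFβ 2 h-only windows near the 10 genes, 23.8%, and in 34.1% of all TGFβ 2 h-only windows. They were in 3 of 39 shared TGFβ 2 h windows, 7.69%, beside 13.9% of all shared ones, and in 0 of 6 vehicle-only windows, which allows a share of up to 50.0%, beside 9.85%. The string CAGACA was in 8 of 21 TGFβ 2 h-only windows, 38.1%, beside 38.4% of all. GGCGC was in 6 of 21, 28.6%, beside 18.2%, and the TEAD string CATTCC in 5 of 21, 23.8%, beside 20.6%. GGCGC was more frequent in the other classes. It was in 17 of 39 shared TGFβ 2 h windows, 43.6%, beside 58.7% of all shared ones. Of the vehicle-only windows it was in 4 of 6, 66.7%, beside 31.5%. The CTCF core string AGGGGGC was in 4 of 21, 19.0%, beside 6.67%. The SMAD palindrome GTCTAGAC was in 0 of 21, which allows up to 14.3%, and in 0.933% of all TGFβ 2 h-only windows. With 21 windows, none of these shares can be called particular to the 10 genes, and a string match is a description of letters, not of a bound factor.

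For context, the same counts were made for other genes of the pathway. The 26 other ligand genes of the family, which include further BMP, GDF, activin, inhibin, Nodal and Lefty genes, had 43 vehicle and 57 TGFβ 2 h intervals. Of these 8 were vehicle-only, or 18.6%, and 22 were TGFβ 2 h-only, or 38.6%, near the 17.6% and 33.7% of the whole lists. More TGFβ 2 h intervals were listed near 12 of the 26, beside 33.6% of protein-coding genes, equal numbers near 10, and fewer near 4, beside 13.2%. Of the 10 with equal numbers, 5 had no interval in either list. The largest difference was at Bmp10, a heart-expressed BMP, with 0 intervals with vehicle and 3 after TGFβ. Of these 26 genes, 22 had no interval at a start in either list, beside 51.9% of protein-coding genes, whereas Gdf9 had one in both, Bmp8b and Gdf11 in the TGFβ 2 h list alone and Bmp2 in the vehicle list alone. Among the listed genes 6 of 10 had one in both lists, beside 43.8% of protein-coding genes, and whether the groups differ was not tested.

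The 11 genes for latency and release of TGFβ had 33 vehicle and 39 TGFβ 2 h intervals, with 4 vehicle-only, or 12.1%, and 10 TGFβ 2 h-only, or 25.6%, beside the same 17.6% and 33.7%. Counts were higher after TGFβ near 6 of the 11, equal near 3 and lower near 2, against the same 33.6% and 13.2% of protein-coding genes with more and with fewer. Of the 3 with equal counts, Fbn2 had no interval in either list. Start-site intervals were in both lists at 5 of the 11, beside 43.8% of protein-coding genes. These were Ltbp4, Thbs1, which encodes the TGFβ activator thrombospondin 1, the protease genes Furin and Bmp1, and the integrin gene Itgav. Fbn1, which encodes the fibrillin that carries LTBPs, had a start-site interval in the TGFβ 2 h list alone. Itgb8, which encodes an integrin subunit that releases TGFβ, had one in the vehicle list alone. The other 4, Fbn2, Lrrc32, Nrros and Itgb6, had none in either list, beside 51.9% of protein-coding genes.

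The TGFβ 2 h list was the longer of the 2, although the vehicle library is listed with more reads, and the part of depth in these counts was not tested. When the TGFβ 2 h list was reduced to the 17784 highest-scoring intervals, the lowest score kept was 655, and the 10 genes had 12 vehicle-only and 11 TGFβ 2 h-only intervals. The matching shares over the whole lists and over all protein-coding genes were not computed at that length. Whether the counts at that length are particular to the 10 genes was therefore not tested. Gdf15 and Ltbp2 then kept 4 TGFβ 2 h-only intervals each, whereas Tgfb2 and Ltbp1 had 1 each and Inhbb had no interval. Tgfb2 then had 4 vehicle and 3 TGFβ 2 h intervals, and Ltbp1 had 4 and 5. Ltbp3 had 17 vehicle and 12 TGFβ 2 h intervals, 5 of them vehicle-only. The higher counts near Gdf15, Ltbp1 and Ltbp2, and the lower count near Ltbp3, were thus also seen at equal list length, and those near Tgfb2 and Inhbb were not. The equal counts near Tgfb3 and Inhba did not hold there, with 2 vehicle intervals and 1 TGFβ 2 h interval each, and 1 of the 2 vehicle intervals of each gene then had no partner.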

How the data were processed

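DNaseI-seq of NMuMG cells was deposited as 1 peak list per condition. The submitters' processing notes name mm9, MACS2 version 2.1.2 and deepTools. The methods send DNaseI-seq through the ATAC-seq pipeline with options not stated, and the aligner for DNaseI-seq is not given in the sources used here. Duplicates are mentioned in the series text, and the study's reporting summary names merged read files, 1 set for each condition. The score the authors deposited for each peak runs from 540 to 1000 in both lists, and what it was computed from is not stated. The paper kept ATAC-seq peaks that were reproducible between replicates by the irreproducible discovery rate. Whether that step was applied here, or gave the score, is not stated, so scores are not read as signal strength. The peak lists hold no read depth. By that summary the vehicle library was the more deeply sequenced, and its figures were not used here.

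Rows that repeat an interval (70449 vehicle and 68542 TGFβ 2 h rows) were collapsed. Gene models were those of GENCODE mouse release M1 on NCBIM37, and distances run from the gene start to the interval midpoint. In all, 2 intervals ran past a chromosome end and had no sequence window. Intervals and overlaps were computed in Python 3.11.15 with numpy 2.4.6 and Wilson intervals with scipy 1.17.1. The overlap code was tested on simulated data. The members and gene lists were chosen with earlier results of these data known. All 10 genes are described, with start-site intervals, vehicle-only intervals and for each gene the 3 highest-scoring TGFβ 2 h-only intervals named by rule. Other named intervals were chosen after their values were seen. Sequences are those of unshared intervals with an AP-1 string in the 300 bp around the midpoint or at a listed start, with shared ones as a contrast. Windows at the Inhbb and Ltbp2 starts lay in untranslated sequence and are not printed. Alternatives changed the unit counted, the window, the overlap, the promoter rule, small intervals and the score limit.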

Additional observations from a re-analysis of the deposited data

How the results depend on the processing

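With 1 list per condition, no value below has an error from replicates. No paired analysis was possible because there was 1 list per condition and no test was made. Over 16 settings, 48 of 77 values stayed within 1.5 times the reported count, or within the Wilson interval of the reported share, and 29 did not. TGFβ 2 h-only intervals outnumbered vehicle-only ones in 12 of 13 settings that gave both counts, and at equal list length they did not, with 11 and 12. Over the whole lists there were 7611 TGFβ 2 h-only and 3128 vehicle-only intervals, so this direction is not particular to the 10 genes. The settings also reuse the same lists and are not independent of each other. Counting every deposited repeat gave 166 vehicle and 165 TGFβ 2 h entries, 15 and 38 of them unshared, and 23.0% TGFβ 2 h-only. Gene bodies alone gave 14 and 24 intervals, 1 vehicle-only and 11 TGFβ 2 h-only. A 10 kb window gave 21 and 33 intervals with 2 vehicle-only, and a 100 kb window gave 69 vehicle intervals. Intervals at the ceiling numbered 24 and 26, with 0 vehicle-only and 2 TGFβ 2 h-only, or 7.69%, and 100% of these were distal. A reciprocal overlap of 50% gave 10 vehicle-only intervals, and protein-coding starts alone made 95.2% of TGFβ 2 h-only intervals distal. In settings added after seeing the data, intervals whose nearest protein-coding start was a listed gene numbered 18 and 32, with 2 vehicle-only and 50.0% TGFβ 2 h-only. Without Ltbp3 there were 28 vehicle intervals and 2 vehicle-only ones. For gene bodies, windows and score limits fewer or more intervals were counted by construction. For the other settings the cause was not tested.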
